A study of Mus musculus with 18 samples.

Results

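Matrix metalloproteinases (MMPs) and tissue inhibitors of metalloproteinases (TIMPs) were described across sorted mouse mammary tumor cells and normal mammary cells. The members were Mmp2, Mmp3, Mmp9, Mmp11, Mmp13, Mmp14, Mmp23, Timp1, Timp2 and Timp3, found as 23 probe sets carrying these symbols in the platform annotation. They are 10 of 18193 annotated genes, measured by Affymetrix array signal in linear units. A gene was represented by its brightest probe set over the arrays of a fit, and other probe sets are named where they differ. Genes in the lowest 40% by mean were not tested, which removed Mmp11 from every comparison and Mmp13 from the normal one, so 9 members were tested in tumors and 8 in normal cells.

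The tumor arrays held cells of 3 mouse mammary tumors, numbered 1, 2 and 7, each sorted by CD29 (integrin beta1) and CD24, a surface glycoprotein. Each tumor gave 1 array of CD29 high CD24 high (CD29H CD24H), 1 of CD29 high CD24 low (CD29H CD24L), 1 of CD29 low CD24 high (CD29L CD24H) and 1 of CD29 low CD24 low cells (CD29L CD24L), so n = 3 for each. The labels place tumors 1 and 2 in transplantation generation 1 and give none for tumor 7. They state no genotype, strain, age or treatment. The study is known for the use of Trp53-null mammary tumors and for tumor-initiating activity in the CD29H CD24H cells. Normal mammary epithelial cells came in 2 preparations. Both gave an array of cells staining high for CD29 and positive for CD24 (CD29H CD24P) and an array of cells positive for CD29 and high for CD24 (CD29P CD24H). A single further normal array was of the CD24 low gate, and 1 array held a reference RNA.

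Every array had a trimmed mean of 500.0 signal units, and array medians lay between 71.6 and 104.2; the number of arrays limits the precision. The normal CD24 low array had a summed signal of 7520 for 8 luminal epithelial markers and 249954 for 10 fibroblast markers, so its markers went against the epithelial label. It entered no difference between groups. It was over 1 log2 unit above the 4 other normal arrays for 6 members, as it was for 6.89% of genes. The normal CD29H CD24P arrays had 111733 and 113946 summed signal for 8 basal markers, above 2072 and 2377 in CD29P CD24H.

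MMPs are zinc-dependent proteases that are made as inactive proenzymes and cleave collagens, laminins, growth factor carriers and other matrix proteins. TIMPs bind the active site of MMPs and block it. In the mammary gland these genes are known for roles in duct branching, in involution after lactation and in the tumor stroma, where fibroblasts and immune cells are well known sources. In bulk RNA of a sorted population, fewer cells of a type and less RNA per cell cannot be told apart.

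The CD29H CD24L tumor cells carried the highest signal of most members. For 6 of the 9 members tested (Mmp2, Mmp3, Mmp9, Mmp14, Mmp23 and Timp1), all 3 CD29H CD24L arrays lay above all 9 other tumor arrays, a pattern held by 4% of the 10916 genes tested. Mmp13, Timp2 and Timp3 overlapped with other populations. In CD29H cells the CD24 high population was lower than the CD24 low one for 5 of the 9 members (limma, adjusted p under 0.05), against 2.17% of all genes that were lower. With tumor number as a block, which takes out the level of each tumor, 8 members were lower and none higher, against 4.62% of genes lower. Leaving out all arrays of tumor 1, 2 or 7 left 1, 0 and 3 members called without the block, and 8, 7 and 6 with it; without any single array the counts were 5 or 6, and 7 to 9 with the block.

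**Figure D1:**
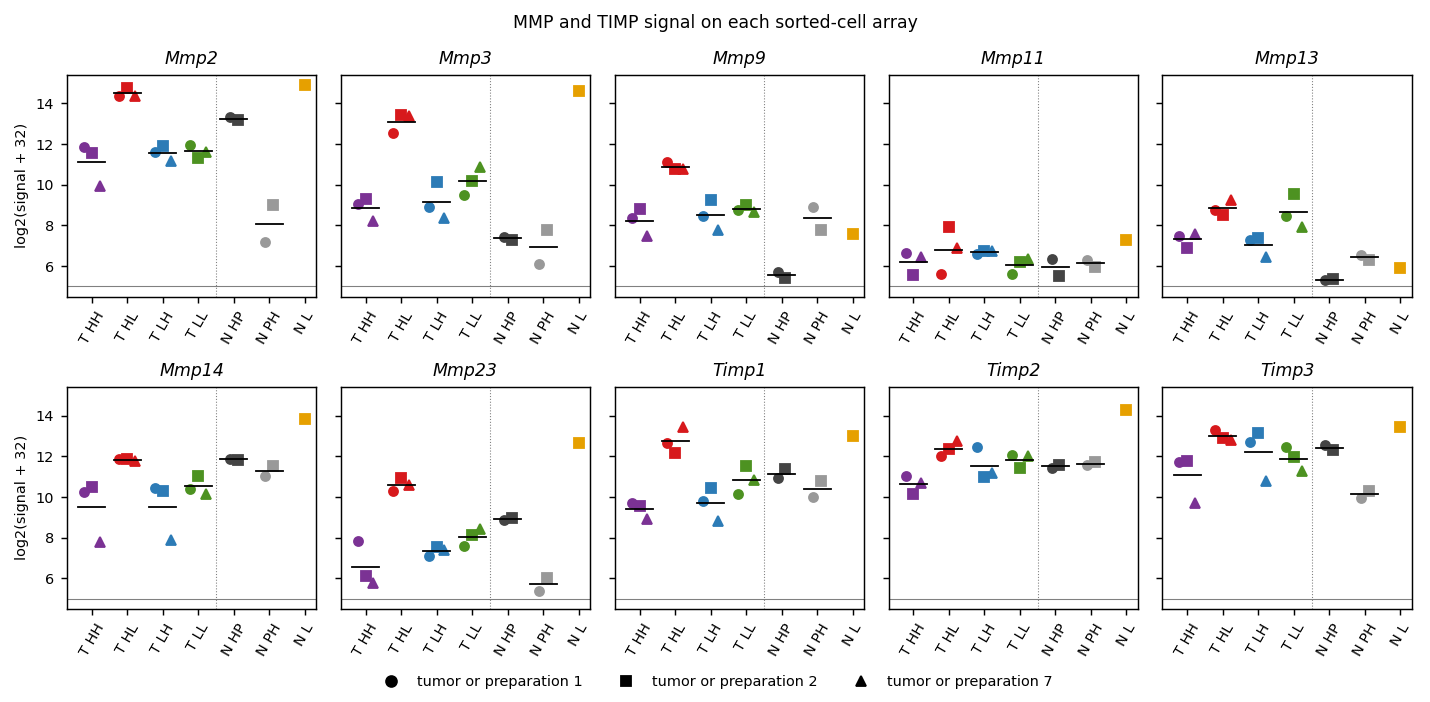
Signal of each member as log2(signal + 32) on the 17 sorted-cell arrays, with 1 point per array, a bar at the mean of each group with over 1 array, and the brightest tumor probe set of each gene. T marks tumor and N normal cells; HH, HL, LH and LL give CD29 then CD24 staining, HP is CD29H CD24P, PH is CD29P CD24H and L is CD24 low, and the horizontal line at 5 is a signal of 0. The T HL points stand above the other tumor points for Mmp2, Mmp3, Mmp9, Mmp14, Mmp23 and Timp1.

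The gelatinases Mmp2 and Mmp9 cleave denatured collagen and basement membrane collagen. Mmp2 had signals of 3700, 2940 and 938 in CD29H CD24H cells of tumors 1, 2 and 7, 21292, 27535 and 20829 in CD29H CD24L cells, 3075, 3761 and 2287 in CD29L CD24H cells, and 3979, 2555 and 3141 in CD29L CD24L cells. The CD29H CD24L arrays stood alone at the top, and the other populations overlapped. On the log2 scale the means were 11.11 ± 1.04 in CD29H CD24H, 14.49 ± 0.22 in CD29H CD24L, 11.56 ± 0.36 in CD29L CD24H and 11.65 ± 0.32 in CD29L CD24L cells (SD, n = 3 each). The CD29H CD24H minus CD29H CD24L difference of Mmp2 was −3.38 ± 0.45 log2 units (SE; limma, adjusted p = 0.00374), and its second probe set gave −3.30 ± 0.42.

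Mmp9 had signals of 294, 420 and 148 in CD29H CD24H cells of tumors 1, 2 and 7, 2206, 1717 and 1735 in CD29H CD24L cells, 322, 579 and 184 in CD29L CD24H cells, and 398, 489 and 374 in CD29L CD24L cells. Again only the CD29H CD24L arrays stood apart. The CD29H CD24H minus CD29H CD24L difference was −2.67 ± 0.43 log2 units (SE; limma, adjusted p = 0.0069). Its dimmer probe set, 1448291_at, gave −2.63 ± 0.63 without passing (limma, adjusted p = 0.0645 when each probe set was tested), and passed with tumor as a block (limma, adjusted p = 0.00235).

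Mmp3, stromelysin 1, degrades proteoglycans and laminin and activates other MMPs. Its signals were 503, 589 and 269 in CD29H CD24H cells of tumors 1, 2 and 7, 5906, 10869 and 10451 in CD29H CD24L cells, 453, 1093 and 294 in CD29L CD24H cells, and 684, 1123 and 1849 in CD29L CD24L cells. The lowest CD29H CD24L array, of tumor 1, was above every other tumor array. The order of the log2 means was CD29H CD24L at 13.10 ± 0.49, CD29L CD24L at 10.18 ± 0.70, CD29L CD24H at 9.14 ± 0.91 and CD29H CD24H at 8.86 ± 0.55 (SD, n = 3 each). The CD29L CD24H arrays overlapped with both of the populations next to them in this order. Every CD29L CD24L array was above every CD29H CD24H array, a separation not counted over all genes. The CD24 high minus CD24 low difference in CD29H cells was the largest in size among the members tested there, at −4.24 ± 0.52 (SE; limma, adjusted p = 0.0035).

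Mmp13, collagenase 3, cleaves fibrillar collagen. It had signals of 147, 85.0 and 158 in CD29H CD24H cells of tumors 1, 2 and 7, 405, 332 and 584 in CD29H CD24L cells, 124, 135 and 55.5 in CD29L CD24H cells, and 316, 721 and 208 in CD29L CD24L cells. Here both CD24 low populations were above both CD24 high ones in every array, whichever the CD29 gate. The share of all genes with this separation was not counted. The CD24 high minus CD24 low difference was −1.54 ± 0.45 in CD29H cells and −1.60 ± 0.45 in CD29L cells (SE), and neither passed (limma, adjusted p = 0.159 and 1). Averaged over both CD29 gates it was −1.57 ± 0.32 and passed narrowly (limma, adjusted p = 0.0473).

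Mmp11, stromelysin 3, known in breast tumors as a product of stromal cells, was near the bottom of the scale. Its signals were 66.7, 15.4 and 55.7 in CD29H CD24H cells of tumors 1, 2 and 7, 17.5, 209 and 86.3 in CD29H CD24L cells, 65.2, 73.3 and 73.5 in CD29L CD24H cells, and 16.9, 42.7 and 49.8 in CD29L CD24L cells. No population stood apart, and the gene was left out of the tests as one of the dim genes.

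Mmp3 and Mmp13 lie on chromosome 9, with 2 coding genes annotated between them, both of the MMP family (Mmp12 and Mmp1b). Their upstream windows are shown because these members share motifs there that the other members' windows do not hold, and Mmp14 is set beside them as a member with GGGCGG in its window. The 250 bases before the RefSeq start (GRCm38.p6, plus strand) are chr9:7445572-7445821 for Mmp3, chr9:7272264-7272513 for Mmp13 and chr14:54431348-54431597 for Mmp14. Capitals mark TGACTCA or TGAGTCA (each the reverse complement of the other, the known AP-1 motif), TATAAA, and GGGCGG (a known Sp1 motif), searched on both strands.
Mmp3: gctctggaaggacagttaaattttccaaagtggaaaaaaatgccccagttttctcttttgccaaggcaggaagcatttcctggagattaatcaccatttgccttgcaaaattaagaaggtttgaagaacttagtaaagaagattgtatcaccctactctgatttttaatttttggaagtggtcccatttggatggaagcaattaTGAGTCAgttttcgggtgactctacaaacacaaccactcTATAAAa
Mmp13: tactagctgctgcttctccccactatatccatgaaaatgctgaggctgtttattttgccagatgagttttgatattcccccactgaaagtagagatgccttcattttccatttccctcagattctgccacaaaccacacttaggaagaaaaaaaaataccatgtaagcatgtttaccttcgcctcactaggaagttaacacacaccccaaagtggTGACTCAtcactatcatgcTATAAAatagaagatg
Mmp14: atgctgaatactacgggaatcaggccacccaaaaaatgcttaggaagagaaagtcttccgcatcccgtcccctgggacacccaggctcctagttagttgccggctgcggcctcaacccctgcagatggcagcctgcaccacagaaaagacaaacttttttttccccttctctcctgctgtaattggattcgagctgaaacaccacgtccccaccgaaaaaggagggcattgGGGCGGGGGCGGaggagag
The AP-1 motif began at −46 in Mmp3 and −35 in Mmp13 relative to the start, and TATAAA began at −7 and −16. Of 8 members with a window in the RefSeq table, these 2 held the AP-1 motif or TATAAA. The windows of Mmp2 and Mmp9 were not analysed here. Over 32841 windows of the same length, 4.46% held TGACTCA or TGAGTCA, 12.4% held TATAAA, 0.722% held both, and 32.7% held GGGCGG. A match describes the letters of these windows and is not a measured site.

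Mmp14, the membrane-bound MMP that activates pro-MMP2 at the cell surface, had signals of 1177, 1405 and 192 in CD29H CD24H cells of tumors 1, 2 and 7, 3717, 3654 and 3403 in CD29H CD24L cells, 1339, 1212 and 206 in CD29L CD24H cells, and 1307, 2051 and 1097 in CD29L CD24L cells. The CD29H CD24L arrays were above the rest, and both CD24 high arrays of tumor 7 were far below those of tumors 1 and 2. The CD24 difference in CD29H cells was −2.31 ± 0.74 (SE) and did not pass (limma, adjusted p = 0.219). With tumor as a block the same difference passed (SE 0.46; limma, adjusted p = 0.00615). The other Mmp14 probe sets did not pass with the block: 1416572_at gave −0.92 and 1440920_at −1.57 (limma, adjusted p = 0.380 and 0.133). Tumor number held 28.0% of the sum of squares of Mmp14 over the 12 arrays, against 54.7% for population.

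Mmp23, a membrane-anchored MMP that proprotein convertases cut free, had signals of 197, 36.6 and 22.4 in CD29H CD24H cells of tumors 1, 2 and 7, 1234, 1918 and 1526 in CD29H CD24L cells, 104, 156 and 135 in CD29L CD24H cells, and 161, 249 and 313 in CD29L CD24L cells. Population held 89.8% of its sum of squares and tumor number 0.187%. Its CD24 difference in CD29H cells was −4.05 ± 0.49 (SE; limma, adjusted p = 0.0035), and the second probe set gave −3.01 ± 0.47.

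Among the inhibitors, Timp1, a secreted inhibitor of most soluble MMPs, followed the same pattern. It had signals of 798, 716 and 459 in CD29H CD24H cells of tumors 1, 2 and 7, 6463, 4488 and 11197 in CD29H CD24L cells, 853, 1383 and 416 in CD29L CD24H cells, and 1115, 2923 and 1809 in CD29L CD24L cells. The CD29L CD24L array of tumor 2 came nearest to the CD29H CD24L arrays without reaching them. The CD24 difference in CD29H cells was −3.36 ± 0.51 (SE; limma, adjusted p = 0.00507).

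Timp2, which binds pro-MMP2 and takes part in its activation by MMP14, had signals of 2030, 1091 and 1645 in CD29H CD24H cells of tumors 1, 2 and 7, 4061, 5207 and 6910 in CD29H CD24L cells, 5678, 1966 and 2292 in CD29L CD24H cells, and 4230, 2736 and 4138 in CD29L CD24L cells. The CD29H CD24H and CD29H CD24L arrays did not overlap, which was not counted over all genes. However, the CD29L CD24H array of tumor 1 and the CD29L CD24L arrays of tumors 1 and 7 reached into the CD29H CD24L range. The difference of −1.75 ± 0.43 (SE) between the CD24 gates of CD29H cells did not pass (limma, adjusted p = 0.0636) and passed with tumor as a block (limma, adjusted p = 0.00508). A second Timp2 probe set, 1433662_s_at, gave −2.09 ± 0.42 and passed without a block when each probe set was tested (limma, adjusted p = 0.0245). The 3 remaining Timp2 probe sets that were tested passed in neither fit. Of these, 1450040_at gave −2.30, 1454677_at −1.61 and 1420924_at −0.21 (limma, adjusted p = 0.0843, 0.0686 and 0.873 with the block). A further Timp2 probe set, 1437081_at, was too dim to be tested, with tumor signals of 2.3 to 34.5.

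Timp3, which is held in the matrix and also inhibits ADAM proteases, had signals of 3356, 3500 and 800 in CD29H CD24H cells of tumors 1, 2 and 7, 9900, 7716 and 7160 in CD29H CD24L cells, 6573, 8913 and 1720 in CD29L CD24H cells, and 5523, 3974 and 2426 in CD29L CD24L cells. Tumor 7 was the lowest tumor in each of the 4 populations. Tumor number held 39.2% of its sum of squares, close to the median of 38.5% over all tested genes, and population 45.9%. The CD24 difference in CD29H cells was −1.93 ± 0.65 without the block, which did not pass (limma, adjusted p = 0.272), and passed with it (SE 0.37; limma, adjusted p = 0.00453). Of its other probe sets, 1419089_at gave −1.81 and passed with the block (limma, adjusted p = 0.00492), while 1449334_at at −1.19 and 1419088_at at −0.70 did not (limma, adjusted p = 0.297 and 0.361).

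**Figure D2:**
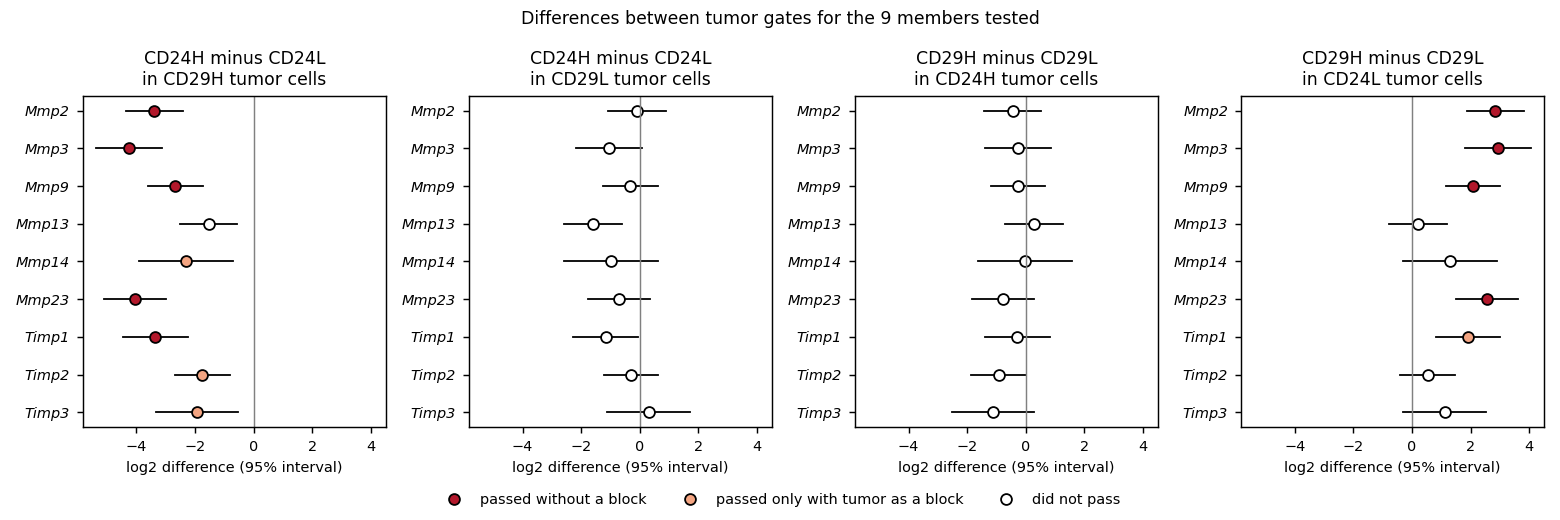
Differences in log2(signal + 32) between tumor gates for the 9 members tested, with the 95% interval of the fit without a block; red points passed limma's adjusted threshold, pale points passed only with tumor as a block and white points did not pass. The left panel holds 5 red and 3 pale points below 0, the right panel 4 red and 1 pale point above 0, and the 2 middle panels none.

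The other gate comparisons share arrays with the one above, and their values are given beside it. In CD24L cells, 4 members were higher in CD29H than in CD29L cells (limma, adjusted p under 0.05), against 1.09% of genes higher: Mmp2 by 2.85 ± 0.45, Mmp3 by 2.92 ± 0.52, Mmp9 by 2.08 ± 0.43 and Mmp23 by 2.56 ± 0.49 log2 units (SE; limma, adjusted p = 0.0171, 0.0208, 0.0375 and 0.0266). The dimmer Mmp9 probe set gave 2.82 and passed only with the block (limma, each probe set tested, adjusted p = 0.0658, and 0.00231 with the block). With tumor as a block Timp1 passed too, at 1.91 (limma, adjusted p = 0.0219), against 3.79% of genes higher. Leaving out the CD29H CD24L array of tumor 1, 2 or 7, or the CD29L CD24L array of tumor 1 or 2, left 0 members called without the block, while with it 4 or 5 were called whichever array was left out.

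In CD29L cells, 0 of 9 members passed between CD24 high and CD24 low cells (limma; 0.0183% of genes, and 353 genes had an unadjusted p under 0.05), and 0 passed with the block (0.0916% of genes). In CD24H cells, 0 of 9 passed between CD29 high and CD29 low cells (limma; 0% of genes, 287 with an unadjusted p under 0.05), and 0 with the block (0.00916% of genes). Between the CD29 gates of CD24H cells the differences ran between −1.13 for Timp3 and 0.27 for Mmp13, and the 95% interval of Mmp2 was −1.43 to 0.53, so a difference of over 1 log2 unit lay within it.

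Averaged over both CD29 gates, 6 members were lower in CD24 high than in CD24 low cells (Mmp2, Mmp3, Mmp9, Mmp13, Mmp23 and Timp1), against 0.724% of genes lower (limma). In CD29H cells these 6 differed by −3.38, −4.24, −2.67, −1.54, −4.05 and −3.36 in that order. In CD29L cells they differed by −0.09, −1.04, −0.32, −1.60, −0.71 and −1.16, and none passed there. The largest average in size was Mmp3 at −2.64 ± 0.37 and the smallest Mmp9 at −1.50 ± 0.30 (SE; limma, adjusted p = 0.031 and 0.0468). The dimmer Mmp9 probe set gave −1.08, which passed in neither fit (limma, adjusted p = 0.655 without the block and 0.112 with it). With tumor as a block Mmp14 and Timp2 passed as well (3.46% of genes lower). Without the block, only the CD29L CD24H array of tumor 2 could be left out with 6 members called; without any other single array 0 to 3 were.

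Averaged over both CD24 gates, 0 of 9 members passed between CD29 high and CD29 low cells (limma; 0% of genes, 705 with an unadjusted p under 0.05). With the block 1 passed, Mmp2 at 1.20 ± 0.25 (SE; limma, adjusted p = 0.0397; 0.669% of genes higher), and the count was 0 without any one of 9 of the 12 arrays.

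Whether the CD24 difference itself differed between the CD29 gates was tested as an interaction. Without the block 0 of 9 members passed (limma; 0% of genes, 646 with an unadjusted p under 0.05). With it 5 passed, against 1.75% of genes below 0: Mmp2 at −3.30 ± 0.50, Mmp3 at −3.20 ± 0.59, Mmp9 at −2.35 ± 0.46, Mmp23 at −3.33 ± 0.65 and Timp3 at −2.24 ± 0.52 (SE; limma, adjusted p = 0.00781, 0.0171, 0.0199, 0.0201 and 0.0409). When each probe set was tested, Timp3 passed by 1419089_at at −2.23 and missed by 1449335_at at −2.24 (limma, adjusted p = 0.0371 and 0.0523). Without all arrays of tumor 2 the blocked count was 0, and leaving out the CD29H CD24H array of tumor 2 or 7 or either CD29L array of tumor 2 left 1; without any other single array it was 3 to 6. For Mmp13 the interaction was 0.06 ± 0.64, with a 95% interval of −1.33 to 1.45.

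The CD29H CD24H cells, in which tumor-initiating activity was studied, were the lowest or next to lowest population by mean for every member tested. Against the mean of the other 3 populations, which includes the high CD29H CD24L cells, all 9 differences were below 0. Their median was −1.30 against 0.0031 over all genes. None passed without a block (limma; 0% of genes, 759 with an unadjusted p under 0.05). With tumor as a block 5 were lower, against 0.742% of genes lower: Mmp2 at −1.46 ± 0.29, Mmp3 at −1.95 ± 0.34, Mmp23 at −2.10 ± 0.38, Timp1 at −1.70 ± 0.37 and Timp2 at −1.30 ± 0.28 (SE; limma, adjusted p between 0.0292 and 0.0441). The second probe sets of Mmp2 and Mmp23 gave −1.36 and −1.17 and did not pass with the block (limma, each probe set tested, adjusted p = 0.0536 and 0.136). With the tumor block still in place, no member was called once the tumor 2 or tumor 7 array of these cells was left out, or all arrays of either tumor. The count lay between 1 and 7 without any other array. Against the CD29L CD24H cells alone the median difference was −0.29, and 1 of the 9 was above 0. There 0 members passed with or without the block (limma), against 0.00916% and 0% of genes.

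The fibroblast and pericyte marker lists were highest in CD29H CD24L cells, as most members were. The T cell and neutrophil lists were highest in CD29L CD24L cells. The 10 fibroblast genes summed to 16228 to 44379 in CD29H CD24H, 162966 to 206378 in CD29H CD24L, 10540 to 90584 in CD29L CD24H and 36010 to 69410 in CD29L CD24L tumor cells. In CD29H cells, 7 of the 10 were lower in the CD24 high gate (limma), against 2.17% of all genes lower. Among them were Dcn at −4.34 and Fap at −3.83 log2 units. With the block all 10 were lower, against 4.62% of all genes. Decorin, encoded by Dcn, is a collagen-binding proteoglycan, and Fap is a protease of activated fibroblasts. The 5 pericyte genes also ran higher in CD29H CD24L cells, at 5664 to 11750 against 1467 to 3169 in the other 3 populations. The endothelial list summed to 494, 1099 and 533 in CD29H CD24H cells of tumors 1, 2 and 7, against 1993, 3645 and 924 in CD29H CD24L cells, higher in the CD24 low gate of every tumor; 3 of its 8 genes were tested there, and 0 were lower in the CD24 high gate without the block and 2 with it (Cdh5 and Esam). The summed signal of the 9 macrophage genes overlapped, at 10540 to 22672 in CD29H CD24H and 15603 to 35243 in CD29H CD24L cells. Within each tumor their mean log2 signal was lower in CD29H CD24H, at 9.30, 10.19 and 9.22 in tumors 1, 2 and 7, against 9.72, 10.84 and 9.81 in CD29H CD24L; all 9 differences were below 0 and none passed with or without the block (limma). The summed signal of the 9 neutrophil genes overlapped too, at 1149 to 5884 in CD29H CD24H and 1835 to 5542 in CD29H CD24L cells. Their mean log2 signal was again lower in CD29H CD24H, at 6.89, 6.88 and 7.50 in tumors 1, 2 and 7, against 7.12, 7.14 and 7.62. Of the 4 neutrophil genes tested, 3 differences were below 0 and 1 above, and none passed in either fit (limma). The summed signal of the 7 T cell genes did not overlap, at 168 to 411 in CD29H CD24H and 606 to 1444 in CD29H CD24L cells. Of these, 3 were bright enough to test and none passed in either fit. In CD29L CD24L cells the T cell list summed to 3886 to 10153 and the neutrophil list to 8533 to 35681, above their CD29H CD24L ranges. The macrophage list summed to 15817 to 56650 there. Between the CD29 gates of CD24L cells, all 3 T cell and all 4 neutrophil genes tested were lower in CD29H. Of the 9 macrophage genes, 7 were lower and 2 higher. The part of these cell types in the MMP and TIMP differences was not tested. Luminal markers were present in CD29H CD24L cells as well, at 38993 to 137227 summed signal. In each tumor their sum was below that of CD29H CD24H cells, at 47208, 65253 and 163982 in tumors 1, 2 and 7. Of the 8 tested, 6 were higher in the CD24 high gate and 2 lower. None passed without the block, and 1 passed as lower with it (limma).

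**Figure D3:**
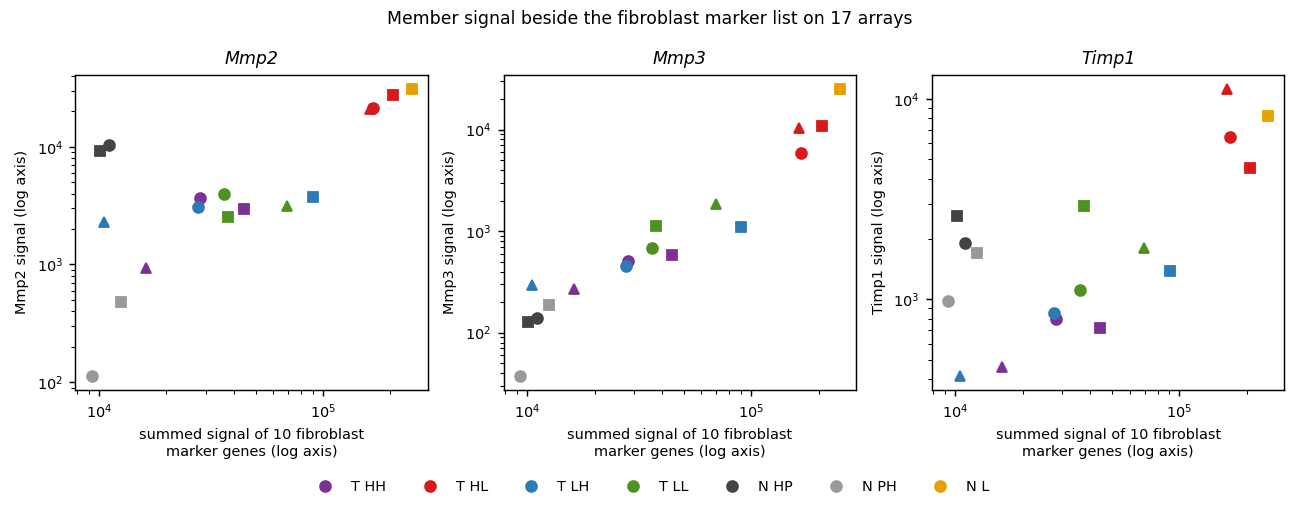
Signal of Mmp2, Mmp3 and Timp1 against the summed signal of the 10 fibroblast markers on 17 arrays, both on log axes, with colours for populations and shapes for the tumor or preparation number as in the plot of signals by array. The 3 T HL arrays and the N L array lie at the upper right, while the 2 N HP arrays combine a Mmp2 signal of 9121 and 10411 with fibroblast sums of 10143 and 11052. Most of those 2 sums is Dcn, at 7561 and 8948.

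In normal cells, the CD29H CD24P population (basal by its markers) and the CD29P CD24H population (luminal by its markers) differed in 5 of the 8 members tested, against 28.9% of genes (limma). Leaving out any of these arrays leaves 1 array in its population, so no count of calls is given for it. Mmp2 had signals of 10411 and 9121 in CD29H CD24P cells of preparations 1 and 2, against 114 and 479 in CD29P CD24H cells, a difference of 5.16 ± 0.48 log2 units (SE; limma, adjusted p = 4.61e-05). The 2 populations lay far apart. Mmp23 had 428 and 476 in CD29H CD24P, against 10.1 and 32.6 in CD29P CD24H, higher by 3.21 ± 0.29 (SE; limma, adjusted p = 4.08e-05). Timp3 had 5954 and 5024 in CD29H CD24P, against 964 and 1244 in CD29P CD24H, higher by 2.29 ± 0.24 (SE; limma, adjusted p = 0.000108). The size depended on the probe set: 1419089_at gave 2.76 and 1419088_at 1.15, and both passed, while 1449334_at gave 0.73 ± 0.29 and did not (SE; limma, each probe set tested, adjusted p = 0.000671, 0.0453 and 0.115). Fibroblast markers summed to 11052 and 10143 in CD29H CD24P against 9266 and 12512 in CD29P CD24H cells, so that list overlapped here. Most of each sum was Dcn, at 8948 and 7561 in CD29H CD24P and 8428 and 8177 in CD29P CD24H cells.

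Mmp9 ran the other way. Its signals were 21.1 and 10.2 in CD29H CD24P cells, against 449 and 190 in CD29P CD24H cells, a difference of −2.79 ± 0.40 log2 units (SE; limma, adjusted p = 0.000685). It was the only member of the 8 that was lower in the basal population. The neutrophil list, markers of a cell type known to store MMP9, summed to 779 to 982 in CD29H CD24P, against 10628 and 15150 in CD29P CD24H. Most of the CD29P CD24H sum was Ltf (lactoferrin, also a milk protein): without it the sums were 233 and 329 in CD29H CD24P, against 464 and 412 in CD29P CD24H. S100a8 had 36.7 and 9.7 in CD29H CD24P, against 299 and 174.5 in CD29P CD24H. Elane had 42.9 and 107 in CD29H CD24P, against 23.9 and 112 in CD29P CD24H. The other listed neutrophil genes had signals of at most 75.1 on these 4 arrays. The macrophage list summed to 2668 and 2537 in CD29H CD24P, against 11719 and 13803.5 in CD29P CD24H. Without Cd14 its sums were 1762 and 1448 in CD29H CD24P, against 1234 and 1426.5 in CD29P CD24H. The part of either cell type in the Mmp9 difference was not tested.

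Timp2, by 1433662_s_at, the brightest probe set in normal cells, had 5171 and 4930 in CD29H CD24P, against 2866 and 3485 in CD29P CD24H, higher by 0.67 ± 0.22 (SE; limma, adjusted p = 0.0459). That call depended on the probe set: 1460287_at gave −0.14 ± 0.22 and 1450040_at gave 1.75 ± 0.33. Timp1 had 1913 and 2598 in CD29H CD24P, against 977 and 1711 in CD29P CD24H, with a difference of 0.77 ± 0.31 (SE; limma, adjusted p = 0.0968). Mmp14 had 3752 and 3546 in CD29H CD24P, against 2068 and 2906 in CD29P CD24H, with a difference of 0.57 ± 0.25 (limma, adjusted p = 0.118). For both the 2 populations did not overlap, as was so in the higher direction for 31.8% of all genes. Mmp3 stayed low in both, at 138 and 126 in CD29H CD24P and 37.7 and 189 in CD29P CD24H, and overlapped.

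**Figure D4:**
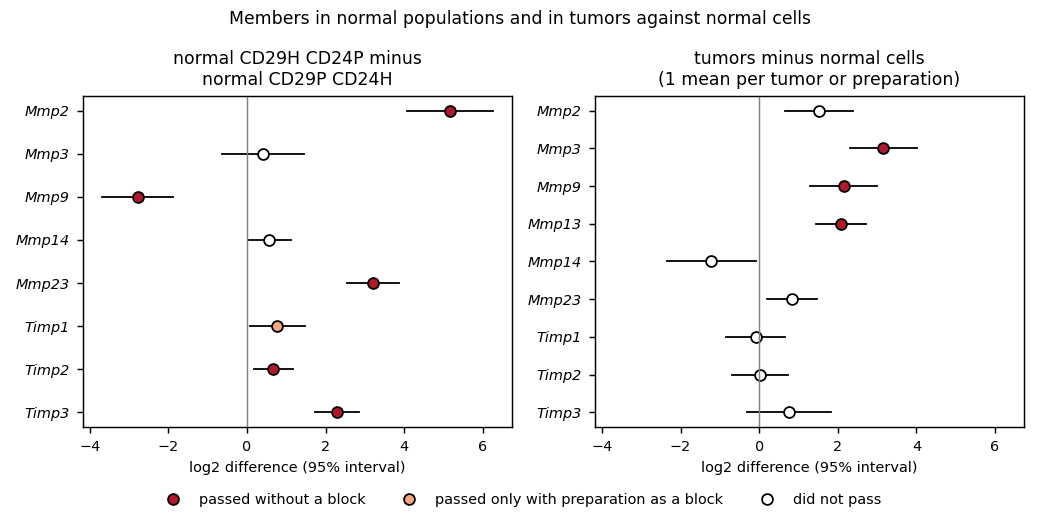
Differences in log2(signal + 32) with the 95% interval for normal CD29H CD24P minus CD29P CD24H cells (left, 8 members) and for tumors minus normal cells (right, 9 members); red points passed limma's adjusted threshold, the pale point passed only with preparation number as a block. Mmp2, Mmp23, Timp2 and Timp3 lie above 0 and Mmp9 below it on the left, and Mmp3, Mmp9 and Mmp13 lie above 0 on the right.

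Tumors were compared with normal cells through 1 mean over populations per tumor (n = 3) and per preparation (n = 2), without the CD24 low array. In tumors 3 members were higher (Mmp3, Mmp9 and Mmp13) and 0 lower, against 4.27% of genes higher and 3.41% lower (limma). Of the fibroblast markers 9 of 10 were higher in tumors, and of the macrophage markers 4 of the 8 tested (limma); their part in the member differences was not tested. Mmp3 ranged between 269 and 10869 with a median of 888.5 over the 12 tumor arrays, against 37.7 to 189 with a median of 132 over the 4 normal arrays, and every tumor array was above every normal one. The difference of the source means was 3.16 ± 0.37 log2 units (SE; limma, adjusted p = 0.00619). The CD29H CD24H tumor arrays alone, at 503, 589 and 269, were above the normal CD29H CD24P arrays at 138 and 126. Shares of all genes with such separations of tumor from normal arrays were not counted.

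Mmp13 ranged between 55.5 and 721 with a median of 183 in tumors, against 8.1 to 62.9 with a median of 27.4 in normal cells, and only the CD29L CD24H array of tumor 7 reached into the normal range. Its difference was 2.08 ± 0.27 (SE; limma, adjusted p = 0.00963). Mmp9 ranged between 148 and 2206 in tumors, against 10.2 to 449 in normal cells, where the populations differ, and its difference was 2.15 ± 0.36 (SE; limma, adjusted p = 0.0189). Both groups overlapped by array for Mmp9, and not by source mean. Its dimmer probe set gave 1.61 ± 0.39 and did not pass (SE; limma, adjusted p = 0.0501). All 3 calls were lost when either normal preparation was left out, which leaves a lone normal value assumed to vary like the tumors. Mmp3 then differed by 2.77 and 3.55 (limma, adjusted p = 0.134 and 0.0939).

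Mmp2 differed by 1.53 ± 0.37 log2 units between tumors and normal cells and did not pass (SE; limma, adjusted p = 0.0503), though both of its probe sets passed when each probe set was tested (1439364_a_at at 1.53 and 1416136_at at 1.55; limma, adjusted p = 0.0474 and 0.0288), with means of 12.45, 12.38 and 11.77 in tumors against 10.27 and 11.08 in the preparations. It was below the normal basal signal in 9 of the 12 tumor arrays and above it in the 3 CD29H CD24L arrays. Mmp14 had a median of 1323 in tumors against 3226 in normal cells, a difference of −1.22 ± 0.48 (SE; limma, adjusted p = 0.161). Mmp23 differed by 0.83 ± 0.27 (SE; limma, adjusted p = 0.105) and Timp1 by −0.09 ± 0.32, with a 95% interval of −0.84 to 0.66. Actin 3'/5' signal ratios, a measure of how far labelled RNA extends, were 14.4 to 99.3 on tumor arrays against 3.08 to 24.7 on the 4 normal arrays; the part of this in the differences was not tested.

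The inhibitors Timp2 and Timp3 gave different answers by probe set in this comparison. For Timp2 the brightest probe set, 1460287_at, differed by 0.02 ± 0.30 between tumors and normal cells. Other Timp2 probe sets were lower in tumors, 1433662_s_at at −1.46 ± 0.33 and 1450040_at at −2.05 ± 0.35 (SE; limma, each probe set tested, adjusted p = 0.0425 and 0.019), and 1454677_at gave −0.46 ± 0.34. For Timp3 the brightest probe set, 1449335_at, gave 0.76 ± 0.44 and did not pass, while 1449334_at gave 2.61 ± 0.48 and 1419088_at 1.25 ± 0.29 and passed (limma, adjusted p = 0.0233 and 0.0457). Mmp14 had 1 probe set above 0, 1440920_at at 0.51 ± 0.32, and 2 below it. Which part of each transcript these probe sets read was not examined here.

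**Figure D5:**
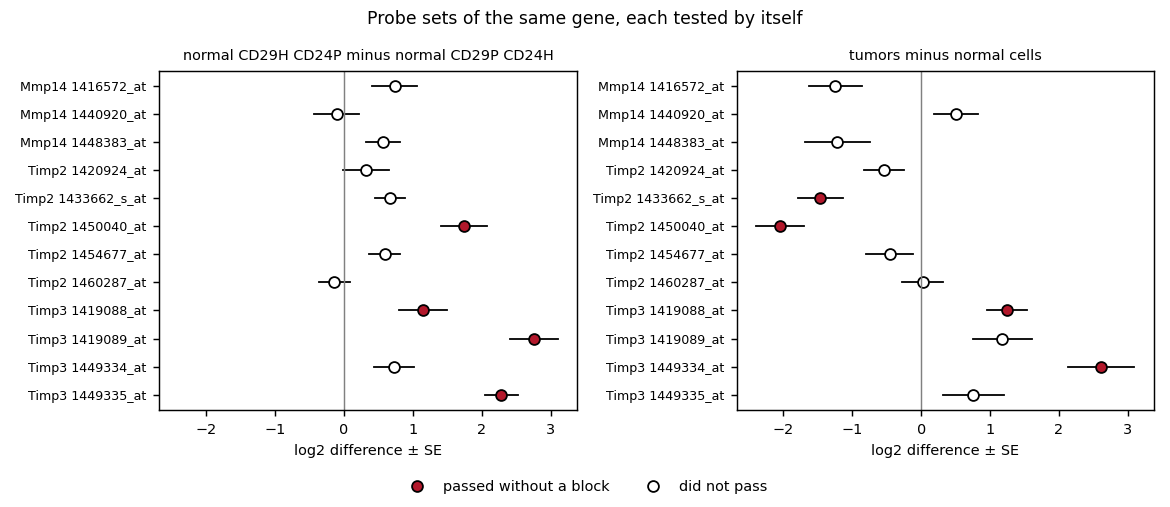
Differences in log2(signal + 32) ± SE for each tested probe set of Mmp14, Timp2 and Timp3, between normal CD29H CD24P and CD29P CD24H cells (left) and between tumors and normal cells (right); red points passed when each probe set was tested. Timp2 probe sets lie between −2.05 and 0.02 on the right, and Timp3 probe sets between 0.76 and 2.61.

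Other genes of the family were mostly dim. Of 17 other MMP and TIMP genes listed, 12 were on the array and 3 (Mmp7, Mmp10 and Mmp12) were bright enough to test in tumors. None passed in any comparison, with or without a block. Mmp10, another stromelysin, differed by −1.16 ± 0.48 log2 units between CD29H CD24H and CD29H CD24L cells (SE; limma, adjusted p = 0.474, and 0.0653 with the block), and by 1.47 ± 0.35 between tumors and normal cells (SE; limma, adjusted p = 0.0502).

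Genes that activate or restrain MMPs, and those of the plasminogen system, which activates several pro-MMPs, were taken as a list of 21, of which 19 were on the array and 15 were tested in tumors. In CD29H cells, 6 of the 15 were lower in CD24 high than in CD24 low cells and none higher (limma), against 2.17% of all genes lower: Pcsk5, a proprotein convertase, at −3.80 ± 0.56, Tfpi2, an inhibitor of plasmin, at −3.12 ± 0.41, Lrp1, a receptor that takes up MMPs with their inhibitors, at −2.88 ± 0.41, and Plat, tissue plasminogen activator, at −2.30 ± 0.44 log2 units (SE), with Serpinf1 and Emilin1. The list's median difference was −1.19, against −2.67 for the members and 0.05 for all genes. In CD24L cells Pcsk5, Tfpi2, Lrp1 and Plat were higher in CD29H than in CD29L cells, at 3.09, 2.45, 2.19 and 2.37 log2 units (limma), against 1.09% of all genes higher. With the block 7 of the list were higher, against 3.79% of all genes.

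In the normal basal population 9 of the 15 were higher than in the luminal one and 0 lower (limma), against 14.3% of all genes higher. Pcsk5 was higher by 5.27 ± 0.26, Serpinb2, an inhibitor of urokinase, by 4.77 ± 0.28, Lrp1 by 3.75 ± 0.25 and Pcsk6 by 3.25 ± 0.26 log2 units (SE). Reck, a membrane-anchored inhibitor of MMPs, was higher by 1.65 ± 0.24. In tumors against normal cells 14 were tested: Serpinb2 was higher by 3.55 ± 0.76, Tfpi2 by 1.71 ± 0.25 and Cd44, a hyaluronan receptor known to dock MMP9, by 1.43 ± 0.22, while Plaur, the urokinase receptor, fell by 1.60 log2 units.

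Over the 12 tumor arrays, the genes most like each member by Pearson correlation were taken from all 10916 tested. Arrays of 1 tumor share its cells, and all arrays share the 4 gates, so these values are descriptions. Nearest to Mmp2 were Adamtsl1 (r = 0.982), Cxcl14 (0.973) and Col5a3 (0.973), and nearest to Mmp3 were Pi16 (0.986), Prg4 (0.984) and Adam12 (0.983). Mmp9 was nearest to Gfpt2 (0.993), Lox (0.978) and Nid1 (0.977), Mmp14 to Rnase4 (0.976), Rcn3 (0.952) and Zmpste24 (0.950), and Mmp23 to Car13 (0.962), Mndal (0.959) and Cyp7b1 (0.959). Timp1 was nearest to Hacd4 (0.965), Spon1 (0.961) and Serping1 (0.955). Mmp13, Timp2 and Timp3 had weaker nearest genes, Cxcl13 (0.875), Entpd2 (0.899) and Tln2 (0.930).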

How the data were processed

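Per the submitters' processing notes, the authors made the deposited signal intensities with GCOS; the sources used here give no version. Per the labels' protocols, a column kit yielded the RNA, which went through 2 cycles of amplification before labelling. The value table holds 45101 probe sets (64 of them controls) on 18 arrays. Intensities were taken as log2(signal + 32) with no further normalization. Of the probe sets, 34945 carry 1 gene symbol in the platform annotation, and 932 with several were not used. Groups came from the sample titles. Linear models with moderated variances and an intensity trend (limma 3.58.1, R 4.3.3) were fitted to 12 tumor arrays with 4 group means, 5 normal arrays with 3 group means, and source means for tumors against normal cells, over 10916 genes each, with Benjamini-Hochberg adjustment over all of them at a threshold of 0.05. The procedure was tested on simulated data.

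Arrays of 1 tumor number come from the same tumor. Their deviations from group means correlated at 0.389 to 0.728 over 18 pairs, so tumor number is used as a block beside the main fit. Between tumors the deviations correlated at −0.458 to −0.0526. Deviations in a group sum to 0 over the tumors, so these values below 0 follow from those above 0 and are no separate support. The labels do not say that the normal preparations came from separate animals, so their p-values may cover technical spread alone. Duplicate arrays were not found (highest r = 0.980). The members, the lists and the rule for named genes (all members, at most 4 passing genes per list and comparison, and the 3 genes most like each member) were chosen with earlier results of these data known. Sequences are from RefSeq, GRCm38.p6. Plots used Python 3.11.15 and matplotlib 3.10.9. Alternatives were an offset of 1 or 100, quantile normalization, equal medians, no filter or a 60% filter, the mean of probe sets, separate tests of probe sets, variances without the trend, tumor or preparation number as a replicate block, the same as a random block, the actin ratio as a covariate, all 17 sorted-cell arrays in 1 fit, and leaving out arrays or tumors. The block with the actin ratio, and leaving out arrays with the block kept, were chosen after seeing the data.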

Additional observations from a re-analysis of the deposited data

Results flagged for a closer look

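The CD24 high minus CD24 low difference was more negative in CD29H than in CD29L tumor cells, by the fit with the tumor block (limma, adjusted p under 0.05), for Mmp2 (−3.30 log2 units), Mmp3 (−3.20), Mmp9 (−2.35), Mmp23 (−3.33) and Timp3 (−2.24). Without the block none of these passed, with adjusted p between 0.167 and 0.708 (limma).

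The single normal CD24 low array, which entered no comparison, was over 1 log2 unit above the 4 other normal arrays for 6 members, as were 6.89% of all genes. Its signals were 31022 for Mmp2, 25222 for Mmp3, 14394 for Mmp14, 6464 for Mmp23, 8172 for Timp1 and 19820 for Timp2. Mmp9 did not share this: it had 157 on the CD24 low array, against 10.2 to 449 on the 4 others. Markers of fibroblasts stood at 249954 summed signal on the same array, and with 1 array there is no test.

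The reference RNA array, which holds no sorted cells, gave Mmp11 a signal of 584, over 1 log2 unit above all 17 sorted-cell arrays, where its highest signal was 209.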

How the results depend on the processing

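The tumor block and the arrays left out both moved the counts of members called. For tumor CD29H CD24H minus the mean of the other populations, 0 were called without it, 5 with the replicate block, 2 with a random block and 6 with the block and the actin ratio. For CD24 in CD29H cells the counts were 5, 8, 9 and 9 in that order, for the interaction 0, 5, 4 and 4, and for CD29 averaged over CD24 0, 1, 0 and 2. Over all genes, the shares called without the block were 0%, 2.17%, 0% and 0% for these comparisons in turn. With the replicate block they were 0.779%, 4.93%, 1.93% and 0.879%. Shares under the other settings are not given here, so those counts are not set against all genes. For CD29 in CD24L cells an offset of 1 left 2 of 4. In normal cells the 60% filter left 2 of 5, the mean of probe sets 3 and all 17 arrays in 1 fit 3; Timp2 there turned to −0.14 in the fit of 17 arrays, where another probe set is brightest. In tumors minus normal cells the 60% filter left 1 of 3. A setting can also drop a dim member from the tests, so these counts do not tell lost calls from members not tested. In normal cells Mmp9 was tested in 13 settings and Mmp23 in 15, against 16 for Mmp2. In tumors minus normal cells Mmp9 and Mmp13 were tested in 13, against 14 for Mmp3.

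Leaving out arrays or tumors gave 0 to 1 for CD29H CD24H against the others and 0 to 6 for CD24 in CD29H cells. It gave 0 to 4 for CD29 in CD24L cells, 0 to 6 for CD24 averaged and 0 to 1 for the interaction. With the tumor block kept, the ranges were 0 to 7, 6 to 9, 4 to 5, 4 to 8 and 0 to 6 for these 5 in the same order, and 0 to 3 for CD29 averaged. No range of counts is given for normal cells or for tumors minus normal cells, where leaving out an array or a preparation can leave 1 value in a group. Of 2319 values of single members under all alternatives, 2039 kept their direction and side of the threshold, 156 lost a call, 61 gained one and 63 changed direction; 62 of the last had no call on either side, and the other is the Timp2 value above. In log2 units, the mean of probe sets turned CD24 in CD29L cells to 0.094 for Mmp2 and 0.077 for Mmp9, CD29 in CD24H cells to 0.20 for Mmp14, CD29 averaged to 0.19 for Timp2 and 0.14 for Timp3, and tumors minus normal cells to −0.71 for Timp2. Equal medians gave 0.12 for Mmp14, 0.11 for Timp3 and −0.19 for Timp2 in the last 3 of these comparisons, and quantile normalization 0.075 for Mmp14. CD29 averaged for Timp3 was 0.00063 with an offset of 100 and 0.0061 with the actin ratio, which also turned the Mmp13 interaction to −0.19, and to −0.27 with the block. Leaving out arrays or tumors gave ranges that include 0. In CD24 within CD29L cells they were −0.41 to 0.10 for Mmp2, −0.70 to 0.049 for Mmp9 and −0.16 to 1.02 for Timp3. In CD29 within CD24H cells they were −0.83 to 0.14 for Mmp2, −0.67 to 0.22 for Mmp3, −0.64 to 0.11 for Mmp9, −0.16 to 0.66 for Mmp13, −0.84 to 0.83 for Mmp14 and −0.73 to 0.10 for Timp1. Mmp13 ran between −0.36 and 0.84 for CD29 in CD24L cells, −0.26 and 0.75 for CD29 averaged and −0.40 and 0.42 for the interaction. CD29 averaged was −0.36 to 0.089 for Timp2 and −0.36 to 0.34 for Timp3. Mmp3 in normal cells was −0.43 to 1.24, and tumors minus normal cells −0.39 to 0.22 for Timp1 and −0.13 to 0.21 for Timp2. With the preparation number as a replicate block, 6 members were called in normal cells, against 31.4% of all genes. The 2 preparations' deviations correlated at 0.0543, so the numbers are not shown to pair those arrays. A random block could not be fitted to the normal arrays and was not run.

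No detection calls were used, so a dim member such as Mmp11 cannot be told from an absent one. The 3 tumors and 2 preparations limit every test.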
